A study of Mus musculus with 18 samples.

Results

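The 10 genes described here are feedback regulators and transcriptional readouts of canonical Wnt signaling: *Axin2*, *Lef1*, *Nkd1*, *Notum*, *Wif1*, *Tcf7*, *Sp5*, *Rnf43*, *Znrf3* and *Lgr5*. They were taken by symbol from the 23420 genes of each table, and all 10 were found in every table. Whole embryonic mouse lungs were profiled by bulk RNA-Seq in 3 experiments of 3 control and 3 mutant libraries, 18 libraries in all. In the first experiment, at E12.5, both groups lacked *Vangl1* through a gene trap allele, so the controls (*Vangl1-/-*) and the mutants (*Vangl1-/-; Vangl2-/-*) differed in *Vangl2*. The floxed *Vangl2* allele had been deleted throughout the embryo with *Sox2-Cre*. In the second, also at E12.5, a floxed *Wnt5a* allele was deleted in the mesenchyme with *Dermo1-Cre*, a knock-in at *Twist2*. In the third, at E13.5, it was deleted with *Sox9-Cre*, a knock-in at *Sox9* used to reach the epithelium. Control lungs of these 2 experiments (*Wnt5af/+; Dermo1Cre* and *Wnt5af/+; Sox9Cre*) carried the same Cre as the mutants (*Wnt5af/f; Dermo1Cre* and *Wnt5af/f; Sox9Cre*) and had already lost 1 copy of *Wnt5a* in the targeted cells. The number of embryos behind a library is not stated, so p-values measure the spread between these libraries, which may be technical. The 3 experiments are called the *Vangl1/2*, *Dermo1-Cre* and *Sox9-Cre* lungs below.

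*Wnt5a* is usually studied as a noncanonical ligand, and *Vangl1* and *Vangl2* are core proteins of planar cell polarity. Canonical Wnt ligands act differently: they bind a Frizzled receptor with *Lrp5* or *Lrp6*, stop the destruction complex from degrading beta-catenin, and let beta-catenin join TCF/LEF factors on DNA. Many of the genes switched on in this way restrain the pathway, among them *Axin2* and *Znrf3*, which makes their RNA a common gauge of canonical activity. In the developing lung, *Wnt2* and *Wnt2b* from the mesenchyme and *Wnt7b* from the epithelium signal through this route. The 3 comparisons address whether the RNA of its feedback genes differs when *Vangl2* or *Wnt5a* is removed.

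Of the 10 genes, 5 lie on chromosome 11 of the mouse genome (GRCm38, GENCODE release 21): *Axin2* at chr11:108920349-108950783, *Tcf7* at chr11:52252371-52283014, *Notum* at chr11:120653788-120661175, *Rnf43* at chr11:87662722-87735539 and *Znrf3* at chr11:5276324-5444847. *Wif1* lies at chr10:121033960-121100650 and *Lgr5* at chr10:115450311-115587780. *Sp5* lies at chr2:70474923-70477729, *Lef1* at chr3:131110471-131224356 and *Nkd1* at chr8:88521354-88594884. The exons of each gene, merged over its transcripts, span from 2100 bases in *Sp5* to 10264 bases in *Lgr5*. All 10 are protein-coding. An annotated gene on the opposite strand overlaps *Axin2* (*Gm11670*), *Lef1* (*Gm43352*), *Notum* (*Notumos* and *Myadml2os*), *Tcf7* (*A630014C17Rik*), *Rnf43* (*Gm25968*) and *Lgr5* (*A930009A15Rik*). Whether strand was used in counting is not given in the sources used here, so reads of these partners cannot be told apart from those of the 6 genes. An annotated gene on the same strand overlaps *Lef1* (*Gm42449*), *Nkd1* (*Gm45496*), *Tcf7* (*Gm26551*) and *Rnf43* (*1110028F11Rik*). Strand could not separate the reads of these pairs.

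Promoter sequences are shown because TCF/LEF factors are read out through DNA. Windows of 250 bases before the RefSeq start (GRCm38.p6) were at hand for 7 of the 10 genes, in 12 windows. They were searched on both strands for the TCF/LEF letters, CTTTG followed by 2 bases that are each A or T, and no matches overlapped. The window of *Sp5*, a transcription factor of the Sp family induced by beta-catenin, held 2 matches, that of *Axin2* held 0 and the first window of *Lef1* held 0. Capitals mark the matches, and all 3 windows are given 5′ to 3′ on the plus strand.
*Sp5* (chr2:70474673-70474922): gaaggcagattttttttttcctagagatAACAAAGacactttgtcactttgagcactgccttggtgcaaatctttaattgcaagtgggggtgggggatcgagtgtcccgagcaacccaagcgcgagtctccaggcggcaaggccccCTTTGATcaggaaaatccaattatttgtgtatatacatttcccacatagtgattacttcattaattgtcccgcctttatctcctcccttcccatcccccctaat
*Axin2* (chr11:108920099-108920348): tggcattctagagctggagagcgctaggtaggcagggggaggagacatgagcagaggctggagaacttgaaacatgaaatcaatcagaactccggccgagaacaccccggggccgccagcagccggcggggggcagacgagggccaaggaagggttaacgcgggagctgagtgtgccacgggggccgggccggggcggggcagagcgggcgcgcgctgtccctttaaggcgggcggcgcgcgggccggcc
*Lef1* (chr3:131110047-131110296): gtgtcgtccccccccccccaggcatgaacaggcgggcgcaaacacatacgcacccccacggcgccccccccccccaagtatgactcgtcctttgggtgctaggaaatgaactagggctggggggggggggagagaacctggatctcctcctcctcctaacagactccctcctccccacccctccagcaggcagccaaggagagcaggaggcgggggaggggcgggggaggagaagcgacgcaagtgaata
In the *Sp5* window the matches lay 222 to 216 bases before the start, on the opposite strand, and 104 to 98 bases before it, on the strand shown. A further window of *Lef1*, before an internal start, held 1 match, and the windows of *Nkd1*, *Wif1*, *Tcf7* and *Rnf43* held 0. Of 32851 promoter windows of the same length, 14.8% held at least 1 match and 1.43% held at least 2. These letters are a description of the window and not evidence of binding.

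All 10 genes were expressed in the lungs at levels well above the filter of 10 normalized counts. The tissue matched its label, with all 10 epithelial markers (among them *Nkx2-1* and *Sftpc*) and all 8 mesenchymal markers (among them *Tbx4* and *Foxf1*) past that filter in every experiment. Cardiomyocyte markers were uneven between libraries. They summed to 999, 4475 and 14852 normalized counts in the *Dermo1-Cre* controls and 1954, 3196.5 and 512 in the mutants. In the *Vangl1/2* lungs it was 881, 942 and 2811 against 274, 4661 and 1066.5. The part of such cells in the values of the members was not tested. A normalized count is the number of reads on a gene divided by the size factor of its library, and the size factors lay between 0.952 and 1.07. Between 15945393 and 19814346 reads per library lay on genes. The lowest member values rested on 52 reads for *Wif1* and 67 for *Lgr5*, against 969 or more for *Axin2*. Divided by exon length, the order of the levels in the control lungs was nearly the same in the 3 experiments. *Tcf7*, a TCF/LEF transcription factor, stood first, with 723 ± 24.0, 599 ± 36.0 and 568 ± 26.8 normalized counts per kb (SD, n = 3) in *Vangl1/2*, *Dermo1-Cre* and *Sox9-Cre* control lungs. *Nkd1*, an inhibitor that binds Dishevelled, came second with 315 ± 25.5, 231 ± 11.1 and 230 ± 9.47 per kb. *Axin2*, a scaffold of the destruction complex, followed with 202 ± 18.7, 209 ± 13.4 and 204 ± 6.38 per kb. *Lgr5*, a receptor for R-spondins, was the lowest of the 10 at 8.03 ± 1.31, 11.3 ± 0.98 and 9.86 ± 0.75 per kb. Neighbours whose control libraries overlapped in that order were *Sp5* and *Lef1*, *Znrf3* and *Notum*, and *Notum* and *Rnf43* in the *Vangl1/2* lungs. They were *Nkd1* and *Axin2*, and *Notum* and *Wif1*, in the *Dermo1-Cre* lungs, and *Sp5* and *Znrf3* in the *Sox9-Cre* lungs.

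Over all 18 libraries the widest range was that of *Wif1*, a secreted protein that binds Wnt ligands, from 51.2 to 152 normalized counts, a ratio of 2.96. *Sp5* ranged from 136 to 367 (ratio 2.69) and *Axin2* from 1018 to 1352 (ratio 1.33), the narrowest. Each table has its own size factors, so these ranges cross tables that were normalized separately. Among the *Vangl1/2* controls *Lgr5* varied by 16.3% (coefficient of variation), against 11.0% from counting alone, and *Wif1* by 29.9% against 11.0%. *Sp5* varied by 27.3% there against 5.68%, *Znrf3* by 31.1% against 4.52% and *Axin2* by 9.25% against 2.99%. *Notum* varied by 1.34% among these controls and by 21.7% among the mutants, where counting gives 8.48% and 7.87%.

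**Figure D1:**
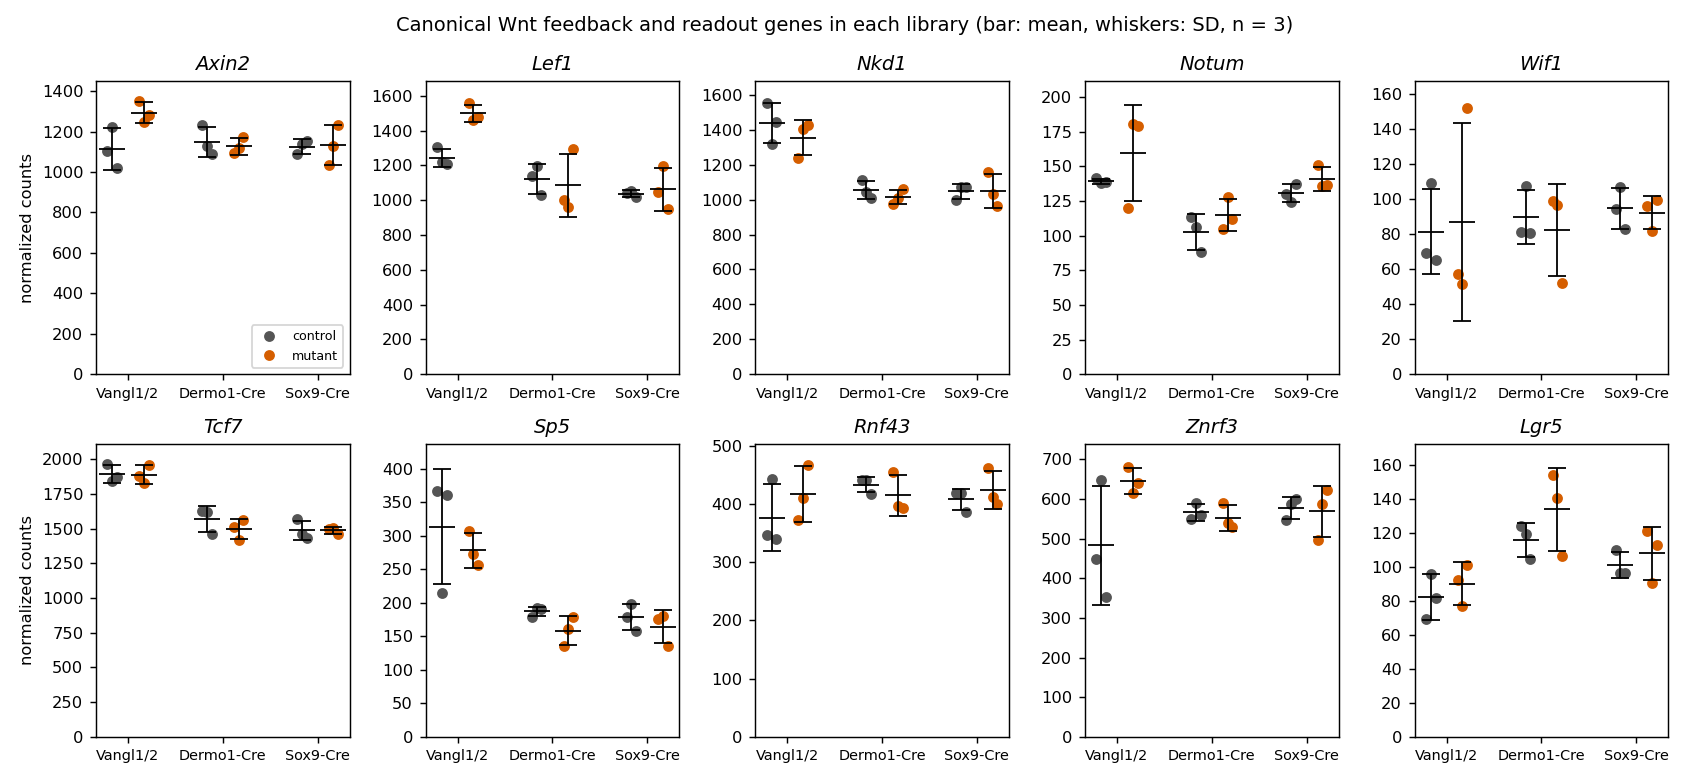
Normalized counts (vertical axes, starting at 0) of the 10 genes in each of the 18 libraries, by experiment, with controls in grey and mutants in orange, and with bars for the mean and SD of 3 libraries. *Axin2* and *Lef1* in the *Vangl1/2* lungs and *Sp5* in the *Dermo1-Cre* lungs are the cases in which no mutant library overlaps a control library.

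The targeted genes were checked first. *Vangl2* stood at 277, 406 and 334 normalized counts in the *Vangl1/2* controls and at 86.6, 79.8 and 89.6 in the mutants, a log2 fold change of -1.96 (SE 0.17, adjusted p = 0.0318 by limma). *Vangl1*, trapped in both groups, stood at 162, 219 and 114 in controls and 239, 274 and 242 in mutants, a log2 fold change of 0.65 with an adjusted p of 0.233. *Wnt5a* stood at 472, 430 and 489 in the *Dermo1-Cre* controls and 317, 436 and 230 in the mutants, a log2 fold change of -0.55 with an adjusted p of 0.406, and the groups overlapped. In the *Sox9-Cre* lungs *Wnt5a* stood at 473, 453 and 426 against 442, 362 and 448, a log2 fold change of -0.12 with an adjusted p of 1. In whole-lung RNA, fewer cells of a type and less RNA per cell cannot be told apart. One library stood apart from its group: on the first principal component of the *Vangl1/2* lungs, which held 51.7% of the variance, control replicate 2 scored 17.0 beside the mutants (15.1 to 21.5), while the other controls scored -30.1 and -44.7. The 8 mesenchymal markers summed to 98302 normalized counts in it, against 58559 and 44461 in the other controls and 73724 to 92569 in the mutants. Results of this experiment are therefore also given without it.

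No feedback gene passed the test in any experiment. The test was limma on log2(normalized count + 1) over all genes that reached 10 normalized counts in 3 or more of the 6 libraries, with Benjamini-Hochberg adjustment over all of them. At an adjusted p under 0.05, 0 of 10 members were called in the *Vangl1/2* lungs, where 0.00699% of 14303 genes were called. It was 0 of 10 in the *Dermo1-Cre* lungs, where 0.014% of 14277 genes were called, and 0 of 10 in the *Sox9-Cre* lungs, where 0% of 14293 were called. edgeR's quasi-likelihood test and DESeq2 on the recovered reads also called 0 members in each experiment, beside 0.00699% and 0.14% of all genes in the *Vangl1/2* lungs, 0.014% and 0.7% in the *Dermo1-Cre* lungs and 0% and 0.063% in the *Sox9-Cre* lungs. At an unadjusted p under 0.05, 1 member differed in the *Vangl1/2* lungs, against 20.5% of all genes, 0 in the *Dermo1-Cre* lungs, against 10.2%, and 0 in the *Sox9-Cre* lungs, against 3.9%. The median log2 fold change of the 10 members was 0.14, -0.06 and 0.0032 for the *Vangl1/2*, the *Dermo1-Cre* and the *Sox9-Cre* lungs, beside -0.0093, 0.0007 and 0.0013 for all genes tested. A single library moved these medians: that of the *Vangl1/2* lungs was 0.056 without mutant replicate 3 and 0.22 without control replicate 2, that of the *Dermo1-Cre* lungs -0.024 without mutant replicate 2 and -0.089 without control replicate 3, and that of the *Sox9-Cre* lungs 0.00012 without mutant replicate 1 and 0.034 without mutant replicate 3. A count of 0 does not show that the levels were equal, and the intervals given below bound the differences.

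In the *Vangl1/2* lungs the largest estimates were those of *Znrf3*, *Lef1* and *Axin2*, all above 0, and none of the 3 passed the test. *Axin2* stood at 1103, 1224 and 1018 normalized counts in the controls and at 1352, 1247 and 1284 in the mutants. Every mutant library exceeded every control, the closest pair being control replicate 2 and mutant replicate 2. The log2 fold change was 0.22 (SE 0.10, 95% interval -0.01 to 0.45), with an unadjusted p of 0.062 and an adjusted p of 0.256 by limma. *Lef1*, the TCF/LEF factor itself induced by canonical signals in many tissues, stood at 1304, 1217 and 1210 in the controls and at 1557, 1463 and 1478 in the mutants. Its groups did not overlap either, and control replicate 2 lay with the other controls. Its log2 fold change was 0.27 (SE 0.09, 95% interval 0.07 to 0.47), with an unadjusted p of 0.0142 and an adjusted p of 0.233 by limma. Non-overlap in this direction was seen for 2 of 10 members and for 13.6% of all genes tested.

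The membrane ubiquitin ligases that remove Frizzled receptors, *Znrf3* and *Rnf43*, had positive estimates. *Znrf3* stood at 449, 648 and 353 in the controls and at 680, 616 and 641 in the mutants, with control replicate 2 among the mutants. Its log2 fold change of 0.46 (SE 0.20) was the largest of the 10 in this experiment, with a 95% interval of -0.0041 to 0.93 and an adjusted p of 0.246 by limma. *Rnf43* stood at 347, 443 and 341 against 373, 411 and 468, a log2 fold change of 0.15 (SE 0.14). Again control replicate 2 was the high control, and the groups overlapped. *Lgr5* stood at 69.2, 96.0 and 82.0 against 92.6, 76.9 and 101, a log2 fold change of 0.13 (SE 0.19) on a low level.

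The secreted inhibitors did not separate the groups of the *Vangl1/2* lungs. *Notum*, an enzyme that removes the lipid of Wnt proteins, stood at 141, 138 and 139 in the controls and at 120, 180 and 179 in the mutants, a log2 fold change of 0.17 (SE 0.18). The controls lay within a narrow range while the mutants fell on both sides of it. *Wif1* stood at 69.2, 109 and 65.2 against 57.4, 51.2 and 152, and mutant replicate 3 alone put the mean of the mutants above that of the controls. The fitted log2 fold change of *Wif1* was -0.04 (SE 0.41), with a 95% interval from -0.99 to 0.90.

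The remaining 3 genes had estimates below 0. *Sp5* stood at 367, 215 and 360 in the controls and at 307, 273 and 256 in the mutants, a log2 fold change of -0.14 (SE 0.21). Control replicate 2 was the lowest of the 6 libraries, below every mutant, while the other controls lay above every mutant. *Nkd1* stood at 1552, 1320 and 1442 against 1239, 1403 and 1425, a log2 fold change of -0.08 (SE 0.10). *Tcf7* stood at 1964, 1845 and 1870 against 1879, 1825 and 1962, and its log2 fold change of -0.0036 had a 95% interval of -0.20 to 0.19. Over the 10 members the 95% intervals reached from 0.504-fold to 1.90-fold, and 6 of 10 lay wholly within 1.5-fold of no change.

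Left out of the fit, control replicate 2 changed the calls. Without it limma called 6180 of 14162 genes (43.6%), among them 4 of the 10 members. *Znrf3* rose by a log2 fold change of 0.69 (adjusted p = 0.00102), *Axin2* by 0.29 (adjusted p = 0.0129) and *Lef1* by 0.25 (adjusted p = 0.0179), while *Sp5* fell by 0.39 (adjusted p = 0.023). In that fit the share of members called was 4 of 10 beside 43.6% of all genes. A single control library thus decides whether any member passes in this experiment, and the labels give no reason to drop it. It was singled out because it lay beside the mutants in these same values. Leaving such a control out tends by itself to widen the gap between the groups. The p-values and calls of all fits without it are therefore a description and not a test.

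The changes in the *Vangl1/2* lungs went with gene length. Across 13437 genes with a length, Spearman's rho between the log2 fold change and the exon length was 0.594, a description across genes, which are not independent replicates. It was 0.236 in the *Dermo1-Cre* lungs and 0.006 in the *Sox9-Cre* lungs. Among the 10 members it was 0.588, 0.503 and 0.406 for the *Vangl1/2*, the *Dermo1-Cre* and the *Sox9-Cre* lungs. Of the short members *Sp5*, *Notum*, *Wif1* and *Tcf7*, all under 3 kb, *Notum* had an estimate above 0 in the *Vangl1/2* lungs and the others had estimates below 0, while those of the longest members *Znrf3*, *Lef1* and *Lgr5* lay above 0. When the trend on length was removed from each library before the fit, the log2 fold change of *Lef1* was 0.05 (adjusted p = 0.81 by limma), that of *Axin2* 0.15 (adjusted p = 0.403) and that of *Znrf3* 0.28 (adjusted p = 0.405). With the trend removed and control replicate 2 left out, a combination added after the data had been seen, limma called 3734 of 13301 genes (28.1%) and 1 of the 10 members. That member was *Znrf3*, at a log2 fold change of 0.45 (adjusted p = 0.0167), while *Axin2* stood at 0.20 (adjusted p = 0.0739) and *Lef1* at -0.04 (adjusted p = 0.689). What gives rise to the trend on length was not tested.

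**Figure D2:**
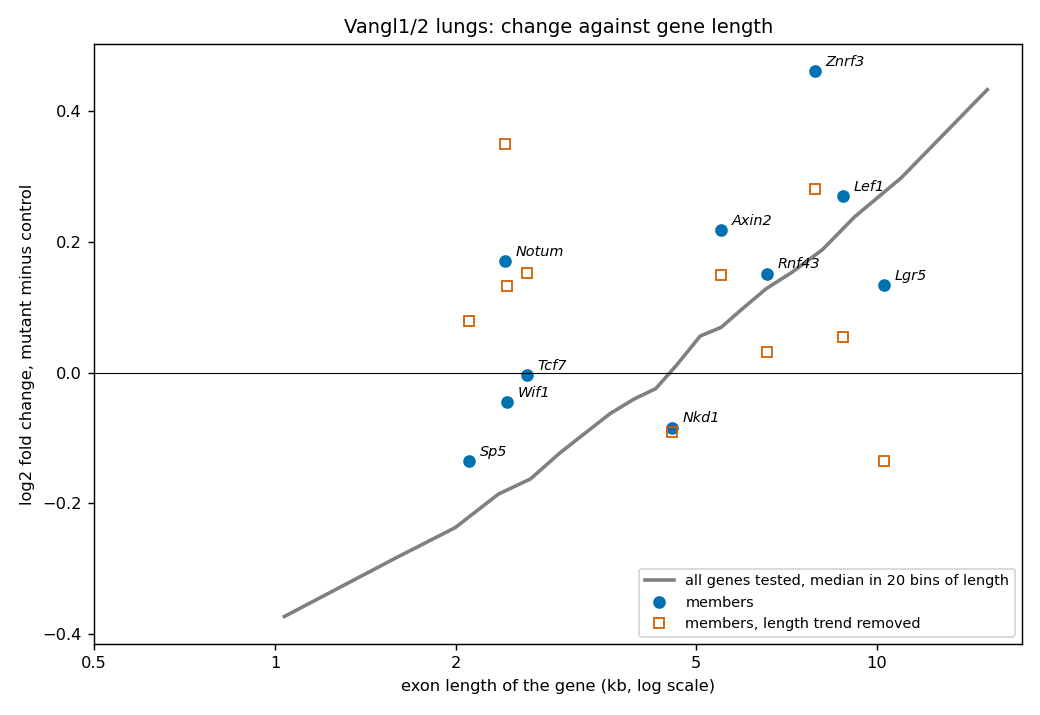
Log2 fold change in the *Vangl1/2* lungs (vertical axis) against exon length in kb (horizontal log axis), for the 10 members as fitted (filled circles) and after the trend on length was removed (open squares), with the median of all genes in 20 bins of length (grey line). *Lef1* at 8.79 kb lies near the grey line, *Axin2* at 5.51 kb and *Znrf3* at 7.89 kb lie above it, and *Lgr5* at 10.26 kb lies below it.

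In the *Dermo1-Cre* lungs, whose groups overlapped in *Wnt5a* itself as given above, 8 of 10 members had estimates below 0 and 2 above. Of all genes tested, 7098 of 14277 had estimates below 0. The estimates of the 10 members lay between -0.25 for *Sp5* and 0.19 for *Lgr5*. *Axin2* stood at 1232, 1131 and 1088 normalized counts in the *Dermo1-Cre* controls and at 1093, 1117 and 1175 in the mutants. All mutants lay within the range of the controls, and the log2 fold change was -0.03 (SE 0.06, 95% interval -0.16 to 0.10). *Lef1* stood at 1138, 1198 and 1029 against 1002, 962 and 1294, with mutant replicate 3 above every control. Its log2 fold change was -0.06 (SE 0.11).

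*Sp5* was the 1 member whose *Dermo1-Cre* groups did not overlap. It stood at 179, 192 and 191 in the controls and at 136, 161 and 179 in the mutants, and the highest mutant (178.75) lay just under the lowest control (179.37). The log2 fold change was -0.25 (SE 0.12, 95% interval -0.51 to 0.02), with an unadjusted p of 0.064 and an adjusted p of 0.512 by limma. Of all genes tested, 7.92% had groups that did not overlap in this direction, and the share among the members was 1 of 10. Marker sums of 2 tissue compartments were lower in the same mutants, without overlap: 10 epithelial markers summed to 15583 to 16490 normalized counts in the controls and 14441 to 14669 in the mutants, and 8 mesenchymal markers to 79997 to 92050 and 72498 to 79769. Of these markers 6 of 10 and 3 of 8 had an unadjusted p under 0.05 by limma, 0 passed the adjustment and none was at 0. The 5 smooth muscle markers summed to 10737 to 15027 in the controls and 7129 to 11582 in the mutants, and all 5 had an unadjusted p under 0.05, with 0 passing the adjustment. The part of these markers in the value of *Sp5* was not tested.

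The other members of the *Dermo1-Cre* lungs had groups that overlapped. *Nkd1* stood at 1110, 1042 and 1012 against 976, 1008 and 1058, and *Tcf7* at 1626, 1621 and 1461 against 1514, 1415 and 1560. Their log2 fold changes were -0.06 (SE 0.05) and -0.07 (SE 0.06). *Rnf43* stood at 442, 441 and 418 against 456, 396 and 392, and *Znrf3* at 549, 590 and 559 against 590, 539 and 529, with log2 fold changes of -0.07 (SE 0.08) and -0.04 (SE 0.07). Of the rarer genes, *Notum* stood at 113, 106 and 88.2 against 105, 128 and 112, and *Lgr5* at 124, 119 and 105 against 154, 141 and 107. These were the 2 members with estimates above 0, of 0.16 (SE 0.14) and 0.19 (SE 0.15). *Wif1* stood at 81.2, 107 and 80.3 against 98.8, 96.3 and 51.9, where mutant replicate 3 alone was below the controls, with a log2 fold change of -0.16 (SE 0.25). The 95% intervals reached from 0.607-fold to 1.45-fold, and 9 of 10 lay within 1.5-fold of no change. Without mutant replicate 3, 3 of 10 members had an unadjusted p under 0.05, 1 higher and 2 lower, beside 4.35% and 3.94% of all genes, and none passed the adjustment. They were *Lgr5* at a log2 fold change of 0.34, *Sp5* at -0.34 and *Lef1* at -0.19, with adjusted p of 0.594, 0.572 and 0.585 by limma. The library left out, mutant replicate 3, had the lowest *Wnt5a* of the mutants, at 230. Mutant replicate 2, which stayed in, lay within the range of the controls at 436. Whether the estimates of the members went with *Wnt5a* from library to library was not tested.

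In the *Sox9-Cre* lungs the estimates of all 10 members lay between -0.12 for *Sp5* and 0.11 for *Notum*, and every pair of groups overlapped, where the groups of 8.78% of all genes did not overlap. *Axin2* stood at 1087, 1137 and 1155 in the controls and at 1034, 1131 and 1233 in the mutants, a log2 fold change of 0.0043 (SE 0.07, 95% interval -0.16 to 0.17). The mutants spread on both sides of the controls. *Lef1* stood at 1041, 1055 and 1016 against 1045, 1195 and 950, with the highest and the lowest values both in mutants, and a log2 fold change of 0.03 (SE 0.08). *Znrf3* stood at 546, 588 and 600 against 498, 586 and 623, a log2 fold change of -0.03 (SE 0.09). *Sp5* stood at 179, 198 and 159 against 177, 181 and 136, where mutant replicate 3 was the low library. *Notum* stood at 130, 124 and 138 against 151, 136 and 136, with a 95% interval of -0.13 to 0.35 on the log2 scale.

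The remaining 5 members of the *Sox9-Cre* lungs also had groups that overlapped. *Tcf7* stood at 1566, 1464 and 1432 against 1495, 1508 and 1462, and *Nkd1* at 998, 1072 and 1073 against 1156, 1031 and 966. *Rnf43* stood at 419, 418 and 387 against 462, 411 and 401, *Wif1* at 94.2, 107 and 82.8 against 95.6, 81.5 and 99.4, and *Lgr5* at 110, 96.6 and 96.8 against 121, 90.5 and 113. The 95% intervals of the 10 members reached from 0.735-fold to 1.34-fold, and all 10 lay within 1.5-fold of no change. In these lungs *Wnt5a* itself differed little in whole-lung RNA, as given above.

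**Figure D3:**
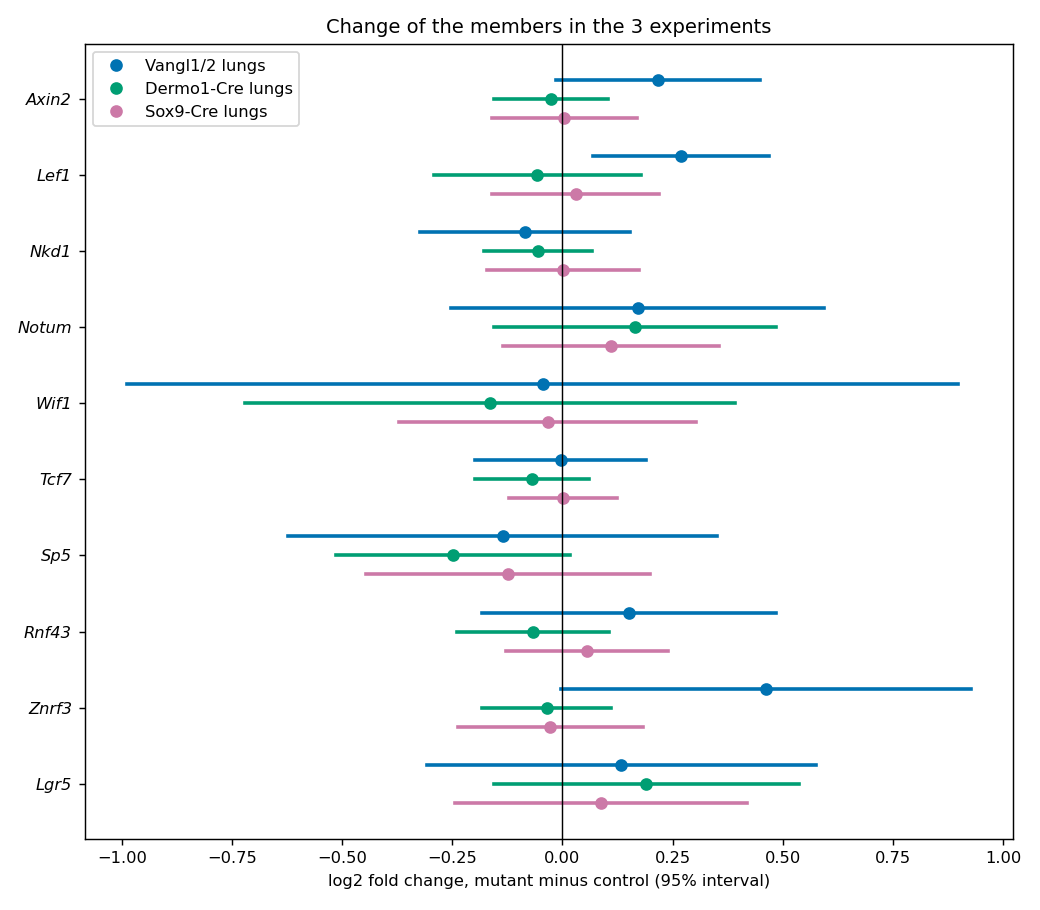
Log2 fold change, mutant minus control, with its 95% interval from limma (horizontal axis) for each of the 10 genes (rows) for the *Vangl1/2*, the *Dermo1-Cre* and the *Sox9-Cre* lungs (colors). The interval of *Lef1* in the *Vangl1/2* lungs, 0.07 to 0.47, is the only one that lies wholly on one side of 0, and *Wif1* has the widest intervals.

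The difference between experiments was tested directly, as the change in one experiment minus the change in another, in 1 limma fit over the 18 libraries and 13980 genes. At an adjusted p under 0.05, 0 of 10 members differed in each of the 3 contrasts. Of all genes, 0.0143% differed between the *Vangl1/2* and *Dermo1-Cre* lungs, 0.0143% between the *Vangl1/2* and *Sox9-Cre* lungs, and 0% between the *Dermo1-Cre* and *Sox9-Cre* lungs. The change of *Znrf3* in the *Vangl1/2* lungs exceeded that in the *Dermo1-Cre* lungs by 0.50 (SE 0.21, unadjusted p = 0.0303, adjusted p = 0.262) and that in the *Sox9-Cre* lungs by 0.49 (SE 0.21, unadjusted p = 0.0326, adjusted p = 0.175). Against the *Dermo1-Cre* lungs the excess was 0.33 (SE 0.14) for *Lef1* and 0.24 (SE 0.11) for *Axin2*, with adjusted p of 0.267 and 0.278 by limma. An unadjusted p under 0.05 was found for 3 of 10 members against 17.3% of all genes in the first contrast, 1 of 10 against 25.1% in the second and 0 of 10 against 2.63% in the third. The fit takes 1 spread per gene over all 18 libraries, so the third contrast also carries the spread of the *Vangl1/2* lungs. For *Znrf3* its SE was 0.21, against 0.065 and 0.092 in the separate fits of the *Dermo1-Cre* and *Sox9-Cre* lungs. Without control replicate 2 of the *Vangl1/2* lungs, *Znrf3* and *Axin2* passed in both contrasts with these lungs: the excess of *Znrf3* was 0.73 (adjusted p = 0.000815) against the *Dermo1-Cre* and 0.72 (adjusted p = 0.000664) against the *Sox9-Cre* lungs, and that of *Axin2* was 0.31 (adjusted p = 0.0226) and 0.28 (adjusted p = 0.0321). In those fits limma called 32.9% and 39.5% of 13910 genes. As that library was singled out from these same values, these p-values are a description only. The *Vangl1/2* and *Dermo1-Cre* lungs, both at E12.5, also differ in depth and alleles, and the *Sox9-Cre* lungs in stage as well, which cannot be told apart from the targeted gene in such a contrast. With the trend on length removed, 0 of 10 members differed in each contrast over the 18 libraries, and its part in the contrasts without control replicate 2 was not tested.

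The rest of the canonical pathway was read in the same fits from 69 other genes in 8 lists, of which 63, 61 and 63 were tested for the *Vangl1/2*, the *Dermo1-Cre* and the *Sox9-Cre* lungs. None passed an adjusted p of 0.05 by limma in any experiment, and edgeR and DESeq2 also called 0. In the *Vangl1/2* lungs 14 of 63 had an unadjusted p under 0.05 with a higher level in mutants and 0 with a lower level, where 12% and 8.56% of all genes did. They comprised 4 of 12 Frizzled and Lrp receptors, 4 of 10 TCF partners and co-factors, 3 of 9 genes of the destruction complex, 1 of 5 R-spondins and their receptors, 1 of 3 lung Wnt ligands and 1 of 12 other beta-catenin targets. The secreted antagonists and the list called other feedback inhibitors had 0 of 6 each. That list is not of inhibitors alone, as *Wls* and *Porcn* in it act in making Wnt ligands. Without control replicate 1 or 3 the 14 higher genes became 7, beside 3.74% and 5.33% of all genes. The marker sums of every compartment overlapped between the groups of these lungs, and 0 markers passed the adjustment by limma. Endothelium, neurons and neural crest, and oesophagus and foregut had 1 marker each at an unadjusted p under 0.05. The 3 compartments with more than 1 such marker follow. Smooth muscle markers summed to 8146 to 12039 normalized counts in the controls and 6226 to 9239 in the mutants, with 4 of 5 at an unadjusted p under 0.05. Mesothelial markers summed to 1799 to 3158 and 2908 to 5119, with 2 of 3 tested at that p, and mesenchymal markers to 44461 to 98302 and 73724 to 92569, with 4 of 8. Their part in the pathway values was not tested.

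Among them the smallest p-values belonged to a ligand enhancer and to proteins that lower beta-catenin. *Rspo2*, a secreted R-spondin that shields Frizzled receptors from *Znrf3* and *Rnf43*, stood at 1174, 1202 and 1138 normalized counts in the *Vangl1/2* controls and at 1734, 1517 and 1428 in the mutants. All mutants exceeded all controls, and the log2 fold change was 0.41 (SE 0.10, adjusted p = 0.233 by limma). *Gsk3b*, the kinase of the destruction complex, stood at 2209, 3478 and 2093 against 3877, 4073 and 4309, and *Amer1*, a scaffold that binds Apc, at 807, 1091 and 768 against 1214, 1335 and 1278. Both had control replicate 2 nearest to the mutants, with log2 fold changes of 0.69 (SE 0.18) and 0.54 (SE 0.14) and adjusted p of 0.233 by limma. Beta-catenin itself, *Ctnnb1*, had means of 24380 and 23820 and a log2 fold change of -0.03 (SE 0.10). With the trend on length removed, 13 of 63 pathway genes were higher and 2 lower at an unadjusted p under 0.05, beside 6.68% and 7.23% of all genes. Without control replicate 2, 27 of 63 passed the adjustment, 24 higher and 3 lower, beside 43.6% of all genes.

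In the *Dermo1-Cre* lungs 4 of 61 pathway genes were higher and 4 lower at an unadjusted p under 0.05, beside 5.42% and 4.76% of all genes. Without mutant replicate 2 it was 9 and 10 of 61, beside 7.14% and 6.17%. *Foxa2*, a forkhead factor of foregut and lung epithelium, stood at 619, 597 and 575 in the controls and at 465, 521 and 463 in the mutants. No mutant reached a control, with a log2 fold change of -0.31 (SE 0.07, adjusted p = 0.198 by limma), and the epithelial marker sum given above was lower in the same libraries, whose part in this value was not tested. *Tcf7l1*, a TCF factor that often represses its targets, stood at 1378, 1435 and 1416 against 1076, 1358 and 1182, a log2 fold change of -0.23 (SE 0.08, adjusted p = 0.378 by limma). *Gsk3a*, the second Gsk3 kinase, stood at 1202, 1254 and 1176 against 1072, 1064 and 1111, a log2 fold change of -0.16 (SE 0.05, adjusted p = 0.334 by limma).

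On the higher side were *Isl1* and *Apc2*, which nerve cells also express. *Isl1* stood at 93.2, 105 and 114 in the *Dermo1-Cre* controls and at 162, 230 and 135 in the mutants, a log2 fold change of 0.72 (SE 0.19, adjusted p = 0.288 by limma). *Apc2* stood at 50.1, 45.2 and 74.3 against 75.6, 125 and 101, a log2 fold change of 0.82 (SE 0.24, adjusted p = 0.324 by limma). The 6 markers of neurons and neural crest summed to 426 to 734 normalized counts in the controls and 797 to 1713 in the mutants, with 5 of 6 at an unadjusted p under 0.05 by limma, 0 passing the adjustment and none at 0. In the order of the replicates the sums were 454, 426 and 734 in the controls and 797, 1697 and 1713 in the mutants. The part of nerve cells in these values was not tested.

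In the *Sox9-Cre* lungs 1 of 63 pathway genes was higher and 2 were lower at an unadjusted p under 0.05, beside 1.08% and 2.81% of all genes. Without mutant replicate 1 it was 5 and 8 of 62, beside 4.49% and 5.81%. *Sfrp1*, a secreted Frizzled-related protein that binds Wnt ligands, stood at 3153, 2691 and 2723 in the controls and at 2306, 2495 and 2144 in the mutants. The groups did not overlap, with a log2 fold change of -0.30 (SE 0.08, adjusted p = 1 by limma). All 6 secreted antagonists tested had estimates below 0, with a median of -0.45, where 7043 of 14293 genes had estimates below 0. Of the 6, 1 (*Sfrp1*) had an unadjusted p under 0.05 by limma. *Dkk1*, *Dkk4* and *Sfrp4*, also listed, did not reach the filter. *Fzd6*, a Frizzled receptor, stood at 321, 308 and 314 against 264, 269 and 268, a log2 fold change of -0.24 (SE 0.07). *Fzd9*, another Frizzled receptor with a low level, stood at 12.88, 11.95 and 17.96 against 38.1, 20.1 and 23.6, a log2 fold change of 0.86 (SE 0.32), and both had an adjusted p of 1 by limma. Mesothelial markers were lower in the same mutants, from 2650 to 3247 summed normalized counts in the controls to 2068 to 2621, with 3 of 4 at an unadjusted p under 0.05 and 0 passing the adjustment by limma. The 5 cardiomyocyte markers summed to 3597, 6029 and 13651 in the controls and 3932, 1953 and 687 in the mutants, with 4 of 5 at an unadjusted p under 0.05. Cartilage markers summed to 1975 to 2381 and 2194 to 3061, with 2 of 4 tested at that p and *Matn1* at 0 in all 6 libraries. None of the mesothelial and cardiomyocyte markers was at 0, and the part of these cells in the values was not tested.

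**Figure D4:**
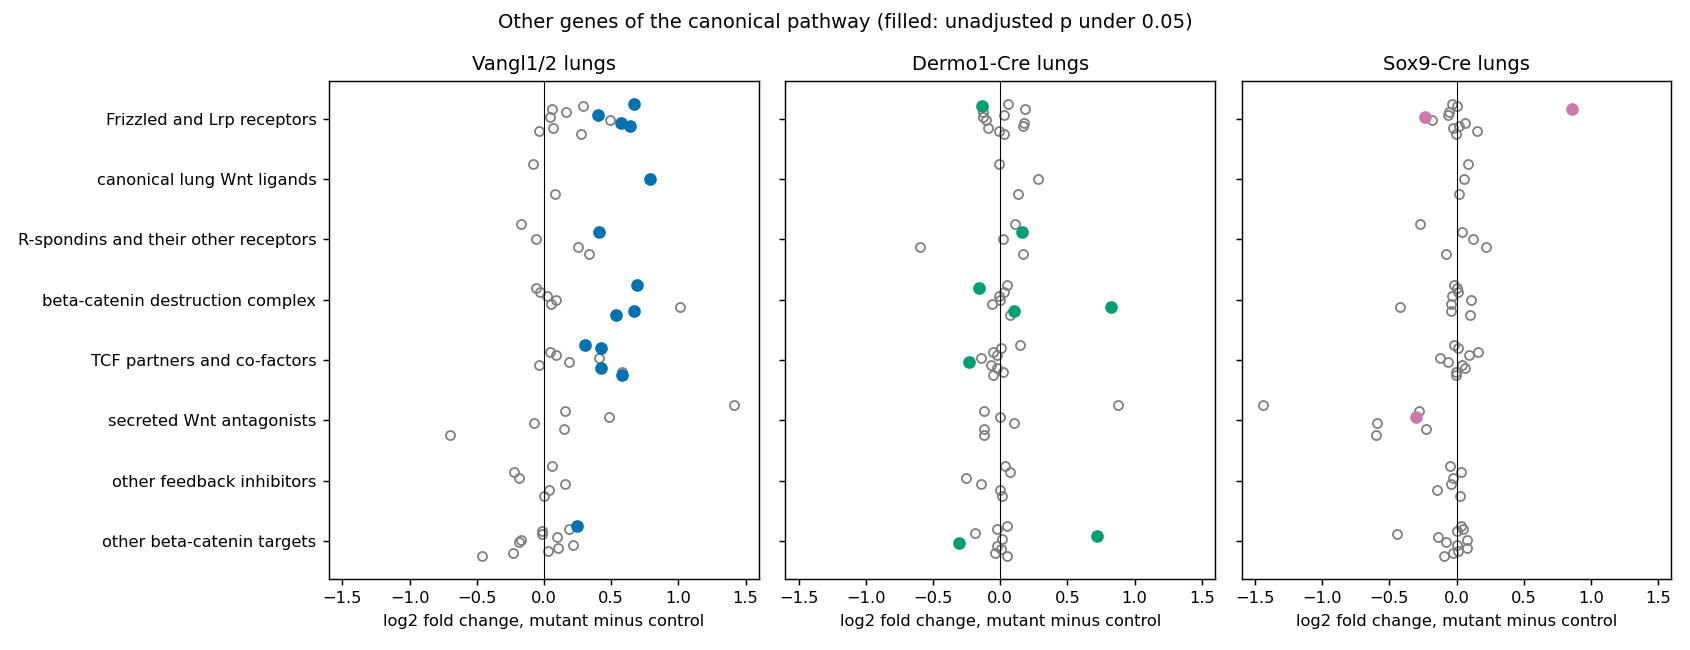
Log2 fold change, mutant minus control (horizontal axes), of the other genes of the canonical pathway, by list (rows), for the *Vangl1/2*, the *Dermo1-Cre* and the *Sox9-Cre* lungs (panels), with filled points for an unadjusted p under 0.05. In the *Vangl1/2* lungs all 14 filled points lie above 0, and in the *Sox9-Cre* lungs the 6 secreted antagonists tested lie below 0. The row of other feedback inhibitors also holds *Wls* and *Porcn*, which act in making Wnt ligands.

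*Axin2* was used to ask which genes varied with it from library to library. Over the 18 libraries, centred within each table, the genes most like it among 13980 were *Atf7ip* (Pearson's r = 0.96), *Prr11* (0.93), *Epb4.1* (0.93), *Chd4* (0.93) and *Mphosph9* (0.92). None of these 5 belongs to the lists of Wnt genes. Of the other members *Znrf3* came closest at r = 0.84, rank 411 of 13980, followed by *Lef1* at 0.47 and *Rnf43* at 0.29. *Sp5* at -0.45 and *Nkd1* at -0.44 varied against *Axin2* over the 18 libraries, but not within each experiment. The points share libraries and size factors, and in the *Vangl1/2* lungs also the trend on length and the group difference, so these values are a description only. Within the experiments the correlation of *Znrf3* with *Axin2* was 0.97, -0.46 and 0.96 for the *Vangl1/2*, the *Dermo1-Cre* and the *Sox9-Cre* lungs, and that of *Nkd1* was -0.69, 0.95 and -0.71, each over 6 libraries. In the same order it was -0.6, 0.31 and -0.65 for *Sp5*, 0.8, 0.61 and -0.39 for *Lef1*, and 0.64, -0.03 and -0.82 for *Rnf43*. The sign of each of these 5 genes thus changed between experiments.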

How the data were processed

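The authors deposited 1 table per experiment, listing 23420 genes by symbol with a signal value for each library, in which gene counts had been divided by the size factor of that library. Per the labels, the processing notes name Trim Galore, HISAT2, featureCounts, DESeq2 and mm10. Versions, annotation and strand setting are not given in the sources used here. Columns of the authors' means, log2 fold changes and unadjusted p-values were not used. Every value was a whole multiple of 1 step per library (100% within 0.01 reads), so reads could be recovered.

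A pseudocount of 1 was added, and log2 values of genes that reached 10 normalized counts in 3 or more of the 6 libraries were compared by limma (version 3.58.1, R 4.3.3) with a mean-variance trend, within each table and without covariates. P-values were adjusted over all genes by the Benjamini-Hochberg method at 0.05. Alternatives used edgeR (version 4.0.16) and DESeq2 (version 1.42.0) on the recovered reads, TMM scaling, a pseudocount of 5, no filter, a trend on exon length removed (lowess, span 0.3), a replicate block, and each library left out. Exon lengths from GENCODE release 21 were found for 92.9% of genes. Promoter windows come from RefSeq (GRCm38.p6), with none found for *Notum*, *Znrf3* and *Lgr5*. The limma fit within a table was tested on simulated counts. These held no trend on length, no library set apart from its group and no contrast between experiments, so the test does not cover those settings.

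Named genes were the 10 members, the targeted genes, up to 3 pathway genes per direction and experiment with the smallest unadjusted p under 0.05 and groups that did not overlap, and the 5 genes most correlated with *Axin2*. *Ctnnb1* was named beyond this rule, after its values were seen. Members, lists and tests were chosen with earlier results of these data known.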

Additional observations from a re-analysis of the deposited data

How the results depend on the processing

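In the *Vangl1/2* lungs 64 of 70 values of the members kept their direction and their side of the threshold under the other tests, scalings, filters and the block, against 70 of 70 in the *Dermo1-Cre* and 69 of 70 in the *Sox9-Cre* lungs. In the *Vangl1/2* lungs *Wif1* reversed to 0.089 under edgeR, 0.097 under DESeq2 and 0.13 with the trend on length removed, where *Tcf7* stood at 0.15, *Sp5* at 0.078 and *Lgr5* at -0.14, and *Nkd1* in the *Sox9-Cre* lungs at -0.0033. With that trend removed and control replicate 2 left out of the *Vangl1/2* lungs, 3734 genes, 1 member and 28 pathway genes were called, and *Lef1* (-0.043), *Wif1* (0.44), *Tcf7* (0.21) and *Lgr5* (-0.13) reversed. The cause was not tested. The number of genes called rose to 20, 100 and 9 under DESeq2 in the *Vangl1/2*, the *Dermo1-Cre* and the *Sox9-Cre* lungs.

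With each library left out in turn, genes called ranged from 0 to 6180, 0 to 52 and 0 to 13 in the 3 experiments, and members called in the *Vangl1/2* lungs from 0 to 4, pathway genes from 0 to 27, and members differing from either other experiment from 0 to 2. All of these highest values in the *Vangl1/2* lungs came without control replicate 2, and those of genes in the *Dermo1-Cre* and *Sox9-Cre* lungs without mutant replicate 1 of each. The median of the members ranged from 0.056 to 0.22, -0.089 to -0.024 and 0.00012 to 0.034. Apart from *Axin2* and *Lef1* in the *Vangl1/2* lungs, each member moved by over 1.5 times in each experiment without at least 1 library. Of those that kept their sign in the *Vangl1/2* lungs, *Sp5* ranged from -0.39 to -0.0038, *Nkd1* from -0.14 to -0.021, *Lgr5* from 0.016 to 0.25, *Notum* from 0.072 to 0.37, *Rnf43* from 0.067 to 0.27 and *Znrf3* from 0.26 to 0.69. Members that changed sign ranged as follows. In the *Vangl1/2* lungs *Wif1* ranged from -0.53 to 0.24 and *Tcf7* from -0.031 to 0.023. In the *Dermo1-Cre* lungs *Axin2* ranged from -0.065 to 0.024, *Lef1* from -0.19 to 0.025 and *Wif1* from -0.32 to 0.13. In the *Sox9-Cre* lungs *Axin2* ranged from -0.059 to 0.068, *Lef1* from -0.057 to 0.11, *Nkd1* from -0.070 to 0.060, *Wif1* from -0.12 to 0.056, *Tcf7* from -0.025 to 0.040, *Sp5* from -0.21 to 0.0069, *Rnf43* from -0.0064 to 0.095 and *Znrf3* from -0.096 to 0.066.

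With the replicate number as a block, 0 genes were called in the *Vangl1/2* lungs and 16 in the *Dermo1-Cre* lungs, and no call of a member changed. Same-numbered libraries correlated in their deviations from the group means at 0.303, 0.049 and 0.013 in the *Vangl1/2*, 0.073, -0.073 and -0.223 in the *Dermo1-Cre* and 0.053, 0.132 and -0.12 in the *Sox9-Cre* lungs, so the numbers were not taken to pair the libraries, and not every library correlated best with its own number. Depth limits *Wif1* and *Lgr5* most.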
